A study of Arabidopsis thaliana with 36 samples.

Results

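The transcripts described here are 56 of the 32678 counted Arabidopsis thaliana loci. Their mean level was up in slr-1 roots after 2 h of auxin, and up by little or not at all in CASP1::shy2-2/slr-1 roots at that time. They were chosen by measured values. L is the log2 of a group's mean CPM plus a pseudocount of 1, where CPM is the usual read count of a locus scaled to the total reads in loci of its library. A member had an L at 2 h at least 1.5 above the untreated control in slr-1 and at most 0.25 above it in CASP1::shy2-2/slr-1. All 56 were annotated as protein coding. Of the loci that met the first condition, 349 in all (1.8% of the 19338 loci with a mean of at least 1 CPM in a group), 91 met it in CASP1::shy2-2/slr-1 as well and 202 lay between.

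Both genotypes were in the Col-0 ecotype and both carried the slr-1 mutation. slr-1 is a dominant mutation that stabilises the repressor IAA14, so every group, controls included, lacked the auxin response that IAA14 blocks, and slr-1 plants make no lateral roots. CASP1::shy2-2/slr-1 plants also expressed shy2-2, a stabilised IAA3, from the CASP1 promoter, which is active in the differentiating and differentiated endodermis, so the second repressor was placed in 1 cell layer of a root sampled whole. Seedlings were harvested at 7 days of age, untreated or after 2, 4, 8, 16 or 24 h on plates with 10 µM NAA (1-naphthaleneacetic acid, an auxin analogue). What was sequenced was the root without its tip and without the shoot and hypocotyl, in 3 libraries for each of the 12 groups of genotype and time. In such bulk tissue, fewer cells of a type and less RNA per cell cannot be told apart.

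Auxin acts in the nucleus by joining the TIR1/AFB receptors to the Aux/IAA proteins, which are then degraded. This frees the ARF transcription factors that the Aux/IAA proteins hold back, and many Aux/IAA genes are themselves among the first targets, which closes a feedback loop. The endodermis is the inner barrier layer of the root. Its cells first build the Casparian strip and later coat their walls with suberin, a polyester of long-chain fatty acids, glycerol and phenolics such as ferulate. Fatty acids for suberin are elongated and hydroxylated in the endoplasmic reticulum and carried out of the cell by transporters of the ABCG family. Endodermal cells above a lateral root primordium shrink and remodel their walls in response to auxin, and shy2-2 under the CASP1 promoter is used to block that response.

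The libraries held 28.1 to 49.0 M reads in loci. Library codes ended in the letter n or x for all 6 libraries at 2 h (5 and 1) and for none of the 6 controls. Of the 24 libraries from 4 to 24 h, 8 also ended in n, unevenly between the genotypes. At 4 h these were CASP1::shy2-2/slr-1 replicates 2 and 3 and slr-1 replicate 3, at 8 h CASP1::shy2-2/slr-1 replicates 1 and 2 and slr-1 replicate 3, and at 16 h replicate 3 of each. The meaning of these letters is not given in the sources used here, and at 2 h they cannot be told apart from the treatment that chose the members. Reads of IAA3, which would count native and transgene transcripts together, were 37.6 to 41.3 CPM in untreated slr-1 and 39.3 to 53.8 CPM in untreated CASP1::shy2-2/slr-1. The summed level of 10 endodermis markers, none of them absent, ran from 101 to 313 CPM in untreated slr-1 and from 257 to 403 CPM in untreated CASP1::shy2-2/slr-1. It was 202 to 222 and 176 to 366 CPM at 2 h, 176 to 200 and 146 to 177 CPM at 4 h, and 32.6 to 34.2 and 60.6 to 69.8 CPM at 24 h. Such a sum is set mainly by the markers with the most reads. CASP1 alone ranged from 10.3 to 57.2 CPM among the 3 slr-1 controls and from 41.7 to 75.6 CPM among those of CASP1::shy2-2/slr-1. At 4 h it was at 1.61 to 8.08 and 3.36 to 19.5 CPM, and at 24 h at 0.562 to 0.911 and 0.71 to 1.01 CPM. IAA3 was at 72.5 to 82 CPM in slr-1 and 40 to 47.1 CPM in CASP1::shy2-2/slr-1 at 4 h. At 24 h it was at 37.9 to 41.2 and 23.2 to 25.7 CPM. These reads do not show the level of shy2-2 apart from native IAA3. The labels do not say whether replicates came from separate sets of plants, so p-values measure the spread between these libraries, which may be technical.

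At 2 h the members' rise in slr-1 had a median of 1.73 in L, from 1.51 to 3.59, and their change in CASP1::shy2-2/slr-1 a median of 0.06, from -1.05 to 0.25. These values chose the members and carry no test. For all 56 members the 3 slr-1 libraries at 2 h lay above the 3 slr-1 controls. For 49 of them the 3 CASP1::shy2-2/slr-1 libraries at 2 h lay below all 3 slr-1 libraries of that time. Both counts use the libraries that chose the members, so the rule favours such a separation. The share over all loci was not counted. Levels in slr-1 at 2 h ran from 2.65 to 727 CPM with a median of 36.6 CPM, and 46 members reached 10 CPM. Just inside the rise threshold stood AT4G18422 (1.506), AT5G59050 (1.528) and BEE1 (1.533), and just outside it PELPK1 (1.487), HSL2 (1.485) and AT1G35180 (1.479). At the other threshold BEE1 (0.248), AIR12 (0.247) and AT1G65920 (0.245) stood inside, and F3H (0.253), RTFL10 (0.254) and CYP707A1 (0.258) outside. F3H, an enzyme of flavonoid synthesis, had a rise of 2.51 in slr-1, so the edge of the group was set by small differences in CASP1::shy2-2/slr-1.

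The membership was sensitive to single libraries. Leaving out CASP1::shy2-2/slr-1 2 h replicate 2, the library whose code ended in x, gave 120 members that included all 56, and leaving out replicate 3 of that group gave 26, of which 25 were among the 56. With each of the 12 libraries used by the rule left out in turn, 19 members were kept every time. These were CYP86A4, GolS3, CEL5, ABCG10, AT1G64340, NIA1, AT2G23910, ABCG1, GAD5, AT3G24240, AT3G50400, AT4G03540, IAA14, UGT84A1, AT4G26790, ATL43, PELPK2, AT5G16980 and ABCG23.

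The largest rise was that of CEL5, which encodes a cellulase. CEL5 stood at 2.1, 2.43 and 3.5 CPM in untreated slr-1 and at 43.6, 40.8 and 45.4 CPM after 2 h. The CASP1::shy2-2/slr-1 libraries held 1.26, 0.0206 and 2.06 CPM without NAA and 0.0289, 0 and 0.0356 CPM after 2 h, which is 0 or 1 read per library. It was the member whose level went furthest down in CASP1::shy2-2/slr-1, with an L change of -1.05. LAC12, a laccase of the family that oxidises phenolics in the wall, went from 2.46, 2.14 and 4.01 CPM to 30.3, 41 and 39.3 CPM in slr-1. Its CASP1::shy2-2/slr-1 levels were 2.71, 2.76 and 3.12 CPM before and 1.61, 6.03 and 1.25 CPM after. The next rises in slr-1 were those of the glycosyltransferases UGT84A1 (3.01 in L) and UGT78D1 (2.56), of AT2G23910, an NAD(P)-binding protein (2.50), and of the fatty acid hydroxylase CYP86A4 (2.44). GolS3, a galactinol synthase (2.29), NIA1, a nitrate reductase (2.22), AT4G03540 of protein family UPF0497 (2.19), the uncharacterised AT4G37295 (2.18), the carboxypeptidase-like scpl28 (2.16) and MYB4, a repressor of phenylpropanoid genes (2.12), completed the 12 largest among members with at least 5 CPM. The members with the most reads at 2 h were ACC1, RWP1, AT3G22620, APR1 and CHIL. ACC1, the acetyl-CoA carboxylase that supplies malonyl-CoA for fatty acid elongation, went from 195, 250 and 252 CPM to 718, 732 and 730 CPM in slr-1, and was at 304, 321 and 387 CPM and then 437, 420 and 329 CPM in CASP1::shy2-2/slr-1.

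**Figure D1:**
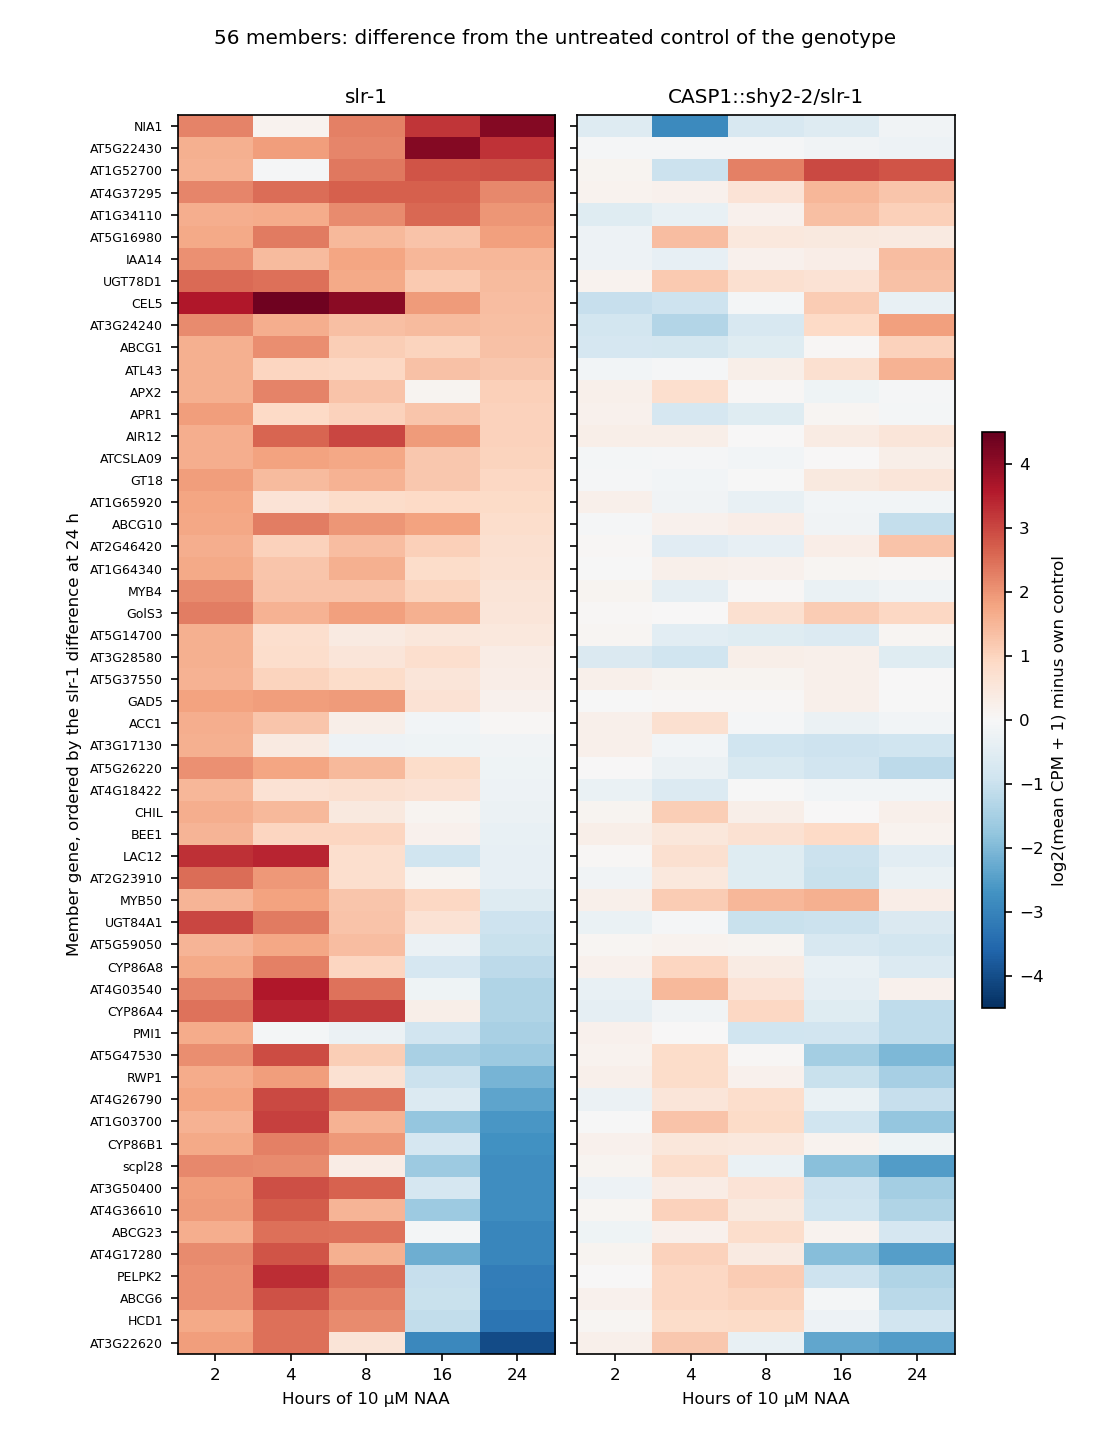
Difference in L (log2 of mean CPM plus 1) between each NAA time and the untreated control of the same genotype, for the 56 members (rows) at 2, 4, 8, 16 and 24 h in slr-1 and in CASP1::shy2-2/slr-1 (columns). The 2 h columns chose the members. The slr-1 columns have medians of 1.73, 1.88, 1.46, 0.59 and -0.05, and the CASP1::shy2-2/slr-1 columns stay between -0.16 and 0.21 in the median.

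Some members already had a higher mean level in untreated CASP1::shy2-2/slr-1 roots. In 13 of the 56 (23.2%, against 1.38% of all loci with at least 1 CPM) the control L of CASP1::shy2-2/slr-1 was at least 1 above that of slr-1, a contrast between control libraries that the rule used. They were APR1, MYB4, AT4G17280, ATCSLA09, scpl28, UGT84A1, NIA1, ABCG10, AT5G16980, AT5G47530, CYP86A4, AT5G26220 and AT3G28580. The rule favours a low slr-1 control and a high CASP1::shy2-2/slr-1 control, so this share is in part set by the choice of members. The control libraries of the genotypes overlapped for UGT84A1, ATCSLA09 and AT5G16980. APR1, the APS reductase of sulfate assimilation, stood at 70.1, 57.1 and 172 CPM in untreated slr-1 and at 248, 370 and 264 CPM in untreated CASP1::shy2-2/slr-1. After 2 h it was at 436, 373 and 308 CPM and at 366, 470 and 186 CPM, so the genotypes overlapped at 2 h and not before treatment. NIA1 stood at 2.76, 4.54 and 5.92 CPM in untreated slr-1 and at 55.3, 35.2 and 51.2 CPM in untreated CASP1::shy2-2/slr-1. After 2 h it was at 31.8, 25 and 16 CPM in slr-1, and at 8.94, 80.3 and 4.34 CPM in CASP1::shy2-2/slr-1, where 1 library stood far above the other 2. That library was replicate 2, with the code ending in x, and the other 2 lay below every slr-1 library at 2 h. The mean 2 h levels of the genotypes were within 0.5 of each other in L for APR1, AT3G28580 and NIA1, which for NIA1 rests on that 1 library.

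After 2 h the members' levels in slr-1 took different courses. These differences from the control share the control libraries with the rule and are given as values. At 4 h 45 of the 56 members were at least 1 above their slr-1 control in L (4.16% of all loci with at least 1 CPM were), at 8 h 39 (3.03%), at 16 h 18 (3.61%) and at 24 h 15 (4.32%). At 24 h 18 members stood at least 1 below it (5.9% of all such loci), and 12 were less than 0.5 from it either way (71.4%). A set of 17 members, defined after the values were seen, was at least 1 above the control at 4 h and at least 1 below it at 24 h. It held RWP1, AT3G22620, ABCG6, AT4G36610, AT4G17280, CYP86B1, PELPK2, scpl28, CYP86A8, AT3G50400, ABCG23, HCD1, AT4G26790, AT5G47530, AT4G03540, CYP86A4 and AT1G03700. Another 9 members stayed at least 1 above the control at all 5 times, namely AIR12, AT3G24240, UGT78D1, AT5G16980, CEL5, AT1G34110, IAA14, AT4G37295 and AT5G22430. PMI1, which is needed for plastid movement, and AT3G17130, a pectin methylesterase inhibitor family protein, were less than 0.5 above their control in L at all 4 later times. Another 5 members, AT1G65920, AT5G14700, AT3G28580, BEE1 and AT4G18422, were less than 1 above it at all 4. PMI1 went from 15.1, 15.9 and 12.2 CPM to 51.5, 50.6 and 41 CPM at 2 h and was back at 17.5, 10.9 and 11.8 CPM at 4 h. Against the CASP1::shy2-2/slr-1 control, 9 members were at least 1 higher in that genotype at 4 h (1.87% of all loci with at least 1 CPM were), 3 at 8 h (1.29%), 6 at 16 h (2.11%) and 9 at 24 h (2.21%).

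The libraries from 4 to 24 h took no part in the choice of members and were tested on their own, by edgeR's quasi-likelihood test on 24 libraries with Benjamini-Hochberg adjustment over all 20708 genes tested, called at an adjusted p under 0.05. All 56 members were among the genes tested. Differences from this test are log2 fold changes ± SE, written as CASP1::shy2-2/slr-1 minus slr-1. At 4 h 40 members (71.4%) were lower in CASP1::shy2-2/slr-1, where 9.07% of all genes were, and 0 were higher, where 7.87% of all genes were (1 was higher at an unadjusted p under 0.05, and 1 with DESeq2). Their median difference was -1.18, against -0.01 over all genes tested. At 8 h 30 members (53.6%, background 7.96%) were lower and 1 was higher (background 6.79%), with a median of -0.80. All 30 had been lower at 4 h. At 16 h 11 members were lower (19.6%, background 4.7%) and 13 higher (background 4.08%), and at 24 h 8 were lower (14.3%, background 6.66%) and 22 higher (background 6.18%), with medians of -0.13 and 0.38. With the 16 h libraries fitted alone, the 13 higher members of that time became 2. The same libraries with the replicate number as a block gave 18 higher and 12 lower. Same-numbered libraries deviated together at that time, but not every library correlated best with its own number, so a true pairing was not shown. Of the 40 members lower at 4 h, 16 were higher at 24 h, 8 were still lower and 16 were not called. For calls joined over several comparisons, here and below, the share of all genes tested was not counted. Leaving out any 1 of the 24 libraries gave 30 to 41 lower members at 4 h and 18 to 23 higher members at 24 h. With the suffix n as a term of the fit, 37 members were lower at 4 h and 30 at 8 h, and 22 were higher at 24 h.

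**Figure D2:**
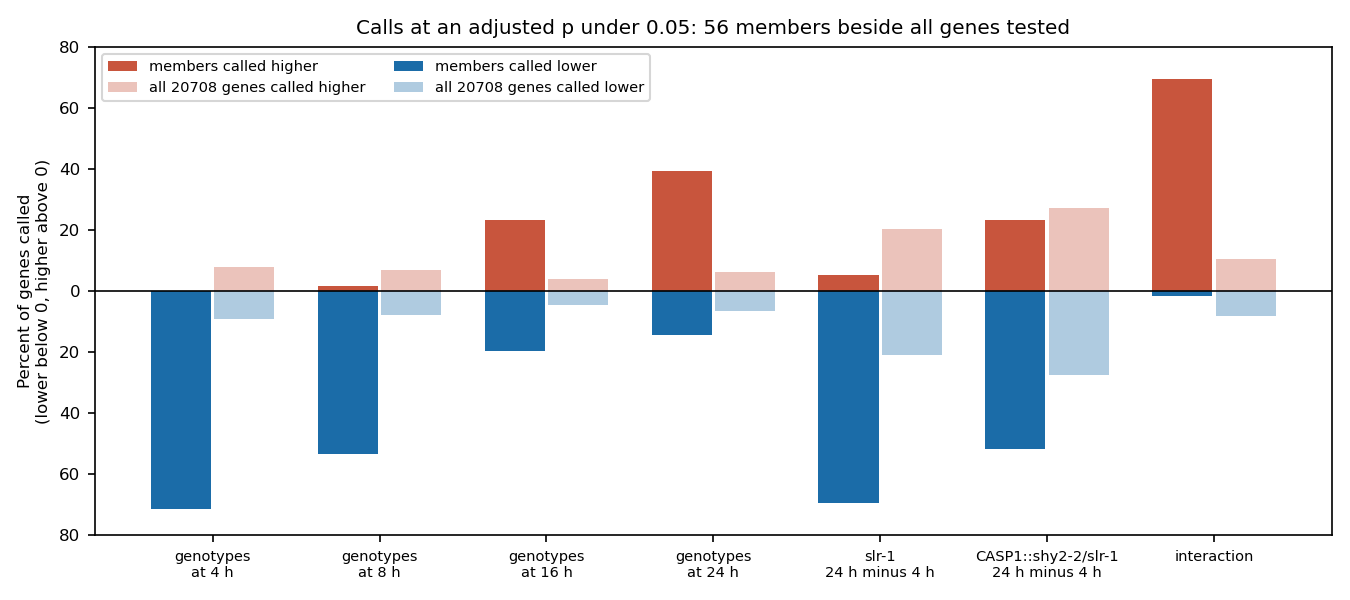
Percent of the 56 members and of all 20708 genes tested that were called higher or lower in each tested comparison (edgeR quasi-likelihood test, adjusted p under 0.05). At 4 h 71.4% of the members were lower in CASP1::shy2-2/slr-1, against 9.07% of all genes, and at 24 h 39.3% were higher, against 6.18%.

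The repressor gene IAA14 was itself a member. The reads cannot show which form of the protein the locus made, since both genotypes carry slr-1. In slr-1 IAA14 stood at 5.25, 4.81 and 6.8 CPM in the controls, 32.5, 25.5 and 22.3 CPM at 2 h, 21.9, 15.3 and 12.4 CPM at 4 h and 23.1, 16 and 14.6 CPM at 24 h. In CASP1::shy2-2/slr-1 it stood at 6.11, 8.68 and 5.66 CPM in the controls, 4.67, 9.26 and 3.27 CPM at 2 h, 5.74, 4.27 and 5.09 CPM at 4 h, 10.7, 7.75 and 7.4 CPM at 16 h and 24.8, 18.7 and 15.5 CPM at 24 h. The genotypes were apart in every library at 2, 4, 8 and 16 h and overlapped at 24 h. The IAA14 difference was -1.71 ± 0.24 at 4 h (edgeR adjusted p = 8.01e-05), -1.43 ± 0.24 at 8 h (adjusted p = 0.000458) and -1.04 ± 0.24 at 16 h (adjusted p = 0.00732). At 24 h the difference was 0.15 ± 0.23 (adjusted p = 0.739). From 4 to 24 h the CASP1::shy2-2/slr-1 level of IAA14 rose by 1.87 ± 0.24 (adjusted p = 5.93e-06), and in slr-1 the difference was 0.01 ± 0.23 (adjusted p = 0.967). The call at 16 h was lost when the 16 h libraries were fitted alone (adjusted p = 0.0686) and kept when the block was added (adjusted p = 0.0219). IAA14 was the single member among the 28 Aux/IAA genes. Of the 27 Aux/IAA genes tested, 16 were lower in CASP1::shy2-2/slr-1 at 4 h, 15 at 8 h, 9 at 16 h and 5 at 24 h, and 0 were higher at any of these times (at most 1 at a time at an unadjusted p under 0.05 or with DESeq2). Of all genes tested, 9.07%, 7.96%, 4.7% and 6.66% were lower at these times and 7.87%, 6.79%, 4.08% and 6.18% higher. At 2 h 6 of the Aux/IAA genes met the rise of 1.5 in slr-1 and 1 in CASP1::shy2-2/slr-1, as values without a test.

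The members whose 12 group levels followed IAA14 most closely were ATL43 of the RING/U-box family (Pearson r of 0.96 in L), AT2G46420 (0.95), the receptor kinase AT3G24240 (0.92), the transporter ABCG1 (0.89) and GT18, a xyloglucan galactosyltransferase (0.88). These coefficients describe 12 groups that include the ones used by the rule. ATL43 was at 0.493, 0.5 and 0.704 CPM in untreated slr-1, 3.46, 3.61 and 4.08 CPM at 2 h and 2.24, 2.81 and 2.71 CPM at 24 h. The CASP1::shy2-2/slr-1 libraries had 0.231, 0.326 and 0.249 CPM at 2 h, 0.292, 0.296 and 0.435 CPM at 4 h, and 2.74, 3.18 and 3.36 CPM at 24 h. The 3 libraries at 24 h thus stood above all earlier ones of that genotype. From 4 to 24 h it rose by 3.08 ± 0.30 in CASP1::shy2-2/slr-1 (edgeR adjusted p = 2.58e-07).

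Both receptor kinases with leucine-rich repeats among the members, AT3G24240 and AT1G34110, had the smallest p at 4 h. AT3G24240 stood at 18.7, 18.4 and 29 CPM in untreated slr-1, 113, 95.3 and 88 CPM at 2 h, 74.2, 69.5 and 66.8 CPM at 4 h and 62.1, 58.6 and 54.6 CPM at 24 h. The CASP1::shy2-2/slr-1 levels were 17.1, 17.6 and 22.2 CPM in the controls, 9.14, 13.5 and 8.04 CPM at 2 h, 7.52, 4.93 and 8.47 CPM at 4 h, 43.8, 34.1 and 30.3 CPM at 16 h and 74.7, 70.9 and 68.6 CPM at 24 h. At 2 h the CASP1::shy2-2/slr-1 libraries lay below their own controls, and by 24 h they lay above every slr-1 library of that time. The AT3G24240 difference was -3.33 ± 0.17 at 4 h (edgeR adjusted p = 7.99e-11), and at 24 h the difference was 0.30 ± 0.15 (adjusted p = 0.223). Its lower level at 16 h (-0.72 ± 0.15, adjusted p = 0.00402) was not called when the 16 h libraries were fitted alone (adjusted p = 0.101, and 0.0675 with the block added).

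AT1G34110 kept the genotypes apart throughout. Untreated slr-1 held 4.96, 7.59 and 10.5 CPM of it, followed by 28.4, 24.8 and 26 CPM at 4 h and 31.4, 31.6 and 37.2 CPM at 24 h. The CASP1::shy2-2/slr-1 libraries were at 2.36, 1.92 and 2.49 CPM in the controls, 1.61, 1.7 and 1.38 CPM at 4 h and 6.29, 5.35 and 5.98 CPM at 24 h. Its differences were -4.07 ± 0.21 at 4 h, -3.76 ± 0.20 at 8 h, -2.80 ± 0.19 at 16 h and -2.50 ± 0.19 at 24 h (edgeR adjusted p from 1.29e-10 to 8.32e-09). In all, 7 members were lower in CASP1::shy2-2/slr-1 at all 4 tested times. The other 6 were CEL5, ABCG10, AT1G64340, GAD5, AT4G37295 and AT5G22430.

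CEL5 reached 85.5, 57.8 and 80.7 CPM at 4 h in slr-1 while the CASP1::shy2-2/slr-1 libraries held 3 to 5 reads each. Among the times on NAA the genotypes were nearest at 16 h, with 10.3, 12.9 and 15.8 CPM against 4.19, 2.54 and 4.41 CPM (-1.79 ± 0.46, edgeR adjusted p = 0.0189). That call was lost with DESeq2 (adjusted p = 0.13) and in edgeR without CASP1::shy2-2/slr-1 16 h replicate 2 (adjusted p = 0.0893). GAD5, a glutamate decarboxylase, which makes the amino acid GABA, was at 3.26, 2.42 and 3.01 CPM in slr-1 at 4 h and had 1 to 3 reads per library in CASP1::shy2-2/slr-1. Its 16 h call was lost without slr-1 16 h replicate 3 or without CASP1::shy2-2/slr-1 16 h replicate 1 or 2 (adjusted p from 0.0603 to 0.0679). AT5G22430 encodes a protein of the pollen Ole e 1 allergen and extensin family. It was at 5.72, 4.21 and 4.66 CPM at 4 h, 33.2, 31.4 and 16.2 CPM at 16 h and 10.8, 14.4 and 17.2 CPM at 24 h in slr-1. In CASP1::shy2-2/slr-1 every library from 4 to 24 h held 3 to 16 reads of it. AT5G22430 rose from 4 to 24 h in slr-1 by 1.44 ± 0.26 (edgeR adjusted p = 0.000194), and it was the 1 member with a called negative interaction, -2.54 ± 0.62 (adjusted p = 0.00921), where the interaction is the 24 h minus 4 h change of CASP1::shy2-2/slr-1 minus that of slr-1. AIR12, named for its auxin induction in root cultures, had differences of -2.21 ± 0.17 at 4 h (adjusted p = 2.5e-08), -2.83 ± 0.17 at 8 h (adjusted p = 9.74e-10) and -1.36 ± 0.16 at 16 h (adjusted p = 8.64e-06). It stood at 113, 128 and 155 CPM in slr-1 at 8 h, against 16.8, 18.9 and 19.4 CPM.

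**Figure D3:**
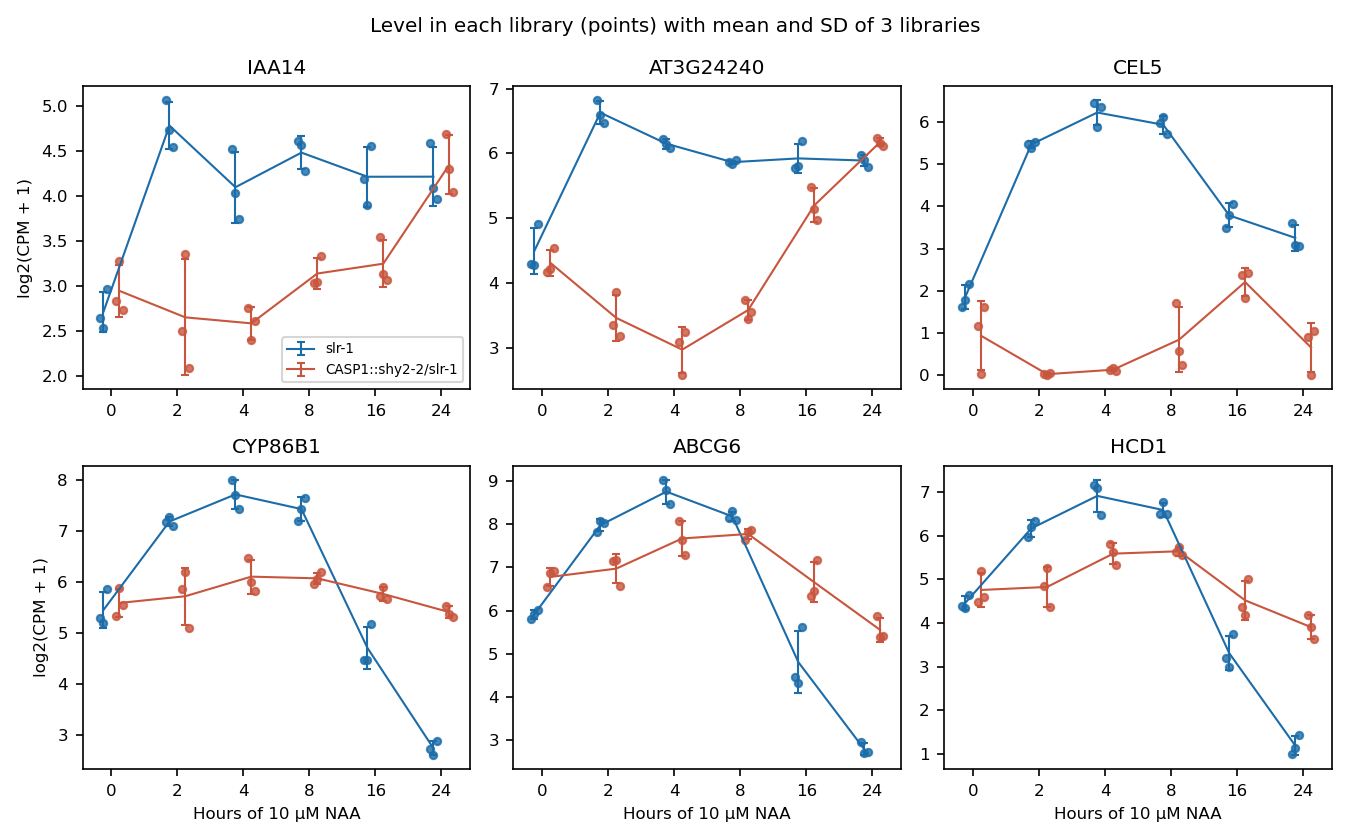
Level of IAA14, AT3G24240, CEL5, CYP86B1, ABCG6 and HCD1 in every library, as log2(CPM + 1), against hours of NAA (0 is the untreated control), with points for libraries and mean ± SD (n = 3) for each genotype. At 24 h IAA14 of CASP1::shy2-2/slr-1 overlaps the slr-1 level, and AT3G24240 lies just above it with no called difference. CEL5 stays below slr-1, and CYP86B1, ABCG6 and HCD1 lie below slr-1 at 4 h and above it at 24 h.

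Of the members that make or export the parts of suberin, 3 of 4 were higher in CASP1::shy2-2/slr-1 at 24 h, where 6.18% of all genes were. These 3 fell from 4 to 24 h in both genotypes, and by more in slr-1. Of 19 matched genes of a suberin synthesis and export list, 4 were members, namely the hydroxylase CYP86B1, which acts on very long-chain fatty acids, the feruloyl transferase RWP1 (also called ASFT), and the ABCG1 and ABCG6 transporters of suberin precursors. Of these 4, only ABCG1 was kept with each of the 12 libraries of the rule left out. CYP86B1, RWP1 and ABCG6 were not members without CASP1::shy2-2/slr-1 2 h replicate 3, nor without control replicate 2 of that genotype. At 2 h 8 genes of that list met the rise of 1.5 in slr-1 and 0 in CASP1::shy2-2/slr-1, with medians of 1.35 and 0.08, as values without a test. Over the 19 tested genes of the list, 15 were lower in CASP1::shy2-2/slr-1 at 4 h and 0 higher, 10 were lower at 8 h and 0 higher (0 and 1 higher at an unadjusted p under 0.05, and 0 and 0 with DESeq2), 8 were higher and 4 lower at 16 h, and 11 were higher and 3 lower at 24 h. Of all genes tested, 9.07%, 7.96%, 4.7% and 6.66% were lower at 4, 8, 16 and 24 h, and 7.87%, 6.79%, 4.08% and 6.18% higher. Among genes of the list that are not members, CYP86A1, a fatty acid hydroxylase, was higher by 4.37 ± 0.34 at 24 h (edgeR adjusted p = 1.05e-08), and FAR4, a fatty acyl reductase, was lower by -2.74 ± 0.10 (adjusted p = 3.15e-13). The sum of the endodermis markers was also above that of slr-1, with 60.6 to 69.8 against 32.6 to 34.2 CPM at 24 h and 107 to 141 against 71.7 to 89.4 CPM at 16 h, and their part in these results was not tested. None of 7 MYB factors of suberin genes was a member, and 6 of them were higher at 24 h.

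CYP86B1 stood at 38.4, 35.6 and 57.2 CPM in untreated slr-1, 144, 154 and 137 CPM at 2 h, 256, 209 and 172 CPM at 4 h, 21.1, 21.3 and 35.1 CPM at 16 h and 5.62, 5.10 and 6.39 CPM at 24 h. The other genotype stood at 39.2, 58.2 and 45.8 CPM in the controls, 57.4, 72.2 and 33.4 CPM at 2 h, 88.2, 63.3 and 55.9 CPM at 4 h and 45.4, 40.5 and 38.9 CPM at 24 h. The slr-1 libraries thus passed from above all those of CASP1::shy2-2/slr-1 to below all of them, while the CASP1::shy2-2/slr-1 libraries ended within or near the range of their controls. The differences were -1.61 ± 0.20 at 4 h (edgeR adjusted p = 1.9e-05), 1.07 ± 0.20 at 16 h (adjusted p = 0.00158, 0.0644 with the 16 h libraries fitted alone and 0.0346 with the block added) and 2.87 ± 0.22 at 24 h (adjusted p = 1.07e-08). From 4 to 24 h CYP86B1 fell by 5.32 ± 0.24 on the log2 scale in slr-1 (adjusted p = 2.97e-12) and by 0.83 ± 0.20 in the other genotype (adjusted p = 0.00185), an interaction of 4.49 ± 0.30 (adjusted p = 4.64e-09). The genotype comparisons at 4 and 24 h share their libraries with these changes over time and with the interaction.

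ABCG6 moved in the same directions. It was at 518, 441 and 352 CPM at 4 h and 6.69, 5.45 and 5.58 CPM at 24 h in slr-1, and at 270, 198 and 156 CPM and then 57.2, 40.8 and 41.3 CPM in CASP1::shy2-2/slr-1. The CASP1::shy2-2/slr-1 controls held 91.9, 116 and 121 CPM of ABCG6, so it ended below them. At 2 h ABCG6 was at 142, 144 and 94.6 CPM in that genotype, with replicates 1 and 2 above every control. Its difference was -1.06 ± 0.29 at 4 h (edgeR adjusted p = 0.0192) and 2.98 ± 0.33 at 24 h (adjusted p = 1.61e-06). The 4 h call was lost without any 1 of 4 libraries, namely slr-1 4 h replicates 1 and 2 and CASP1::shy2-2/slr-1 4 h replicates 2 and 3 (adjusted p from 0.0541 to 0.0876). RWP1 was higher in CASP1::shy2-2/slr-1 at 24 h by 1.36 ± 0.17 (adjusted p = 7.72e-06), with 37.6, 33.4 and 36.7 CPM in slr-1 and 104, 85.9 and 85.6 CPM in CASP1::shy2-2/slr-1. It too ended below the CASP1::shy2-2/slr-1 controls, which held 223, 320 and 245 CPM. At 2 h RWP1 was at 347, 371 and 207 CPM in that genotype, again with replicates 1 and 2 above every control. At 4 h its libraries overlapped, with 690, 566 and 464 CPM against 558, 424 and 398 CPM (-0.31 ± 0.16, adjusted p = 0.187). ABCG1 was the exception among the 4. It was at 140, 130 and 77.5 CPM in slr-1 at 4 h against 24.4, 3.75 and 10.7 CPM (-3.15 ± 0.52, adjusted p = 0.000327), and at 69.8, 65.7 and 69.1 CPM at 24 h against 50.3, 50.0 and 45.4 CPM (-0.48 ± 0.47, adjusted p = 0.568). The 24.4 CPM was the library without the suffix n, and 3.75 and 10.7 CPM were the libraries with it. At 8 h the CASP1::shy2-2/slr-1 library without it stood at 27.8 CPM and those with it at 7.88 and 9.87 CPM. ABCG1 kept its calls at 4 and 8 h with the suffix as a term. From 4 to 24 h ABCG1 rose by 1.81 ± 0.50 in CASP1::shy2-2/slr-1 (edgeR adjusted p = 0.00469). Its call at 8 h (-1.92 ± 0.49, adjusted p = 0.0134) was lost without slr-1 8 h replicate 2 or without CASP1::shy2-2/slr-1 8 h replicate 1 or 2 (adjusted p from 0.0576 to 0.0786).

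HCD1 and ABCG23 were also lower in CASP1::shy2-2/slr-1 at 4 h and higher at 24 h. HCD1 is annotated as a 3-hydroxyacyl-CoA dehydratase. It was at 144, 135 and 88.8 CPM at 4 h and 0.989, 1.21 and 1.7 CPM at 24 h in slr-1, and at 55.2, 48.6 and 39.3 CPM and then 17.1, 14 and 11.4 CPM in CASP1::shy2-2/slr-1. Its difference was -1.35 ± 0.24 at 4 h (edgeR adjusted p = 0.000696) and 3.46 ± 0.30 at 24 h (adjusted p = 6.53e-08), and the interaction was 4.81 ± 0.39 (adjusted p = 6.05e-08). ABCG23, an ABC transporter, was at 135, 120 and 108 CPM at 4 h and 1.95, 1.45 and 2.27 CPM at 24 h in slr-1, and at 49.4, 38.5 and 32.1 CPM and then 23.6, 18.5 and 17.8 CPM in CASP1::shy2-2/slr-1. Its differences were -1.59 ± 0.22 (adjusted p = 5.81e-05) and 3.42 ± 0.26 (adjusted p = 1.05e-08), with an interaction of 5.01 ± 0.34 (adjusted p = 6.71e-09). For both genes the slr-1 libraries were all higher at 4 h and all lower at 24 h.

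The 16 members that were lower at 4 h and higher at 24 h also held the hydroxylases CYP86A4 and CYP86A8, the GDSL lipases AT3G50400 and AT4G26790, the hydrolase AT4G36610 and the UPF0497 proteins AT4G03540 and AT1G03700. The others were PELPK2, a hydroxyproline-rich glycoprotein, GolS3, MYB50, UGT84A1 and AT5G59050. CYP86A4 was at 65.8, 56.2 and 43 CPM in slr-1 at 4 h against 13.2, 11.6 and 6.84 CPM, and at 1.3, 0.844 and 0.886 CPM at 24 h against 5.79, 4.43 and 4.16 CPM. AT3G50400 was at 184, 165 and 140 CPM at 4 h against 53.1, 53.1 and 37.2 CPM, and at 1.98, 1.99 and 2.50 CPM at 24 h against 13.4, 12.5 and 11.6 CPM. The libraries of the genotypes were apart at both times for both genes. PELPK2 differed by -2.15 ± 0.32 at 4 h (edgeR adjusted p = 0.000132) and by 2.4 ± 0.37 at 24 h (adjusted p = 0.000101). Some of the 16 rest on single libraries. AT1G03700 lost its 4 h call without slr-1 4 h replicate 1 or 2 or CASP1::shy2-2/slr-1 4 h replicate 2 or 3 (adjusted p from 0.0743 to 0.0947). Its 24 h call was lost without slr-1 24 h replicate 2 or 3 or CASP1::shy2-2/slr-1 24 h replicate 1 (0.058 to 0.109). UGT84A1 lost its 4 h call without slr-1 4 h replicate 1 or CASP1::shy2-2/slr-1 4 h replicate 2 or 3 (0.0587 to 0.0921), and its 24 h call without slr-1 24 h replicate 2 or 3 or CASP1::shy2-2/slr-1 24 h replicate 1 (0.0647 to 0.103). MYB50 and CYP86A8 lost their 24 h calls without replicate 1 or 2 of either genotype at 24 h (0.0534 to 0.105).

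A further 6 members were higher in CASP1::shy2-2/slr-1 at 16 and 24 h and not called at 4 h. Besides RWP1 these were scpl28, the lipid-transfer protein AT3G22620, AT4G17280 and AT5G47530 of the auxin-responsive family, and AT5G26220, a ChaC-like protein. Before NAA, scpl28, AT4G17280, AT5G47530 and AT5G26220 were already at least 1 above slr-1 in L. AT5G26220 stood at 1.43, 1.31 and 4.73 CPM in untreated slr-1 and at 21.9, 24.6 and 22.7 CPM in untreated CASP1::shy2-2/slr-1. AT3G22620 was at 886, 781 and 554 CPM in slr-1 at 4 h against 592, 512 and 443 CPM, and at 9.03, 5.39 and 6.65 CPM at 24 h against 47.3, 37.2 and 30.1 CPM. It fell from 4 to 24 h by 6.82 ± 0.39 on the log2 scale in slr-1 (edgeR adjusted p = 6.71e-11) and by 3.85 ± 0.33 in CASP1::shy2-2/slr-1 (adjusted p = 5.87e-08). scpl28 fell by 5.36 ± 0.22 (adjusted p = 9.83e-13) and by 3.49 ± 0.20 (adjusted p = 4.57e-10). AT5G47530, with 1.37, 1.62 and 2.26 CPM in slr-1 at 16 h against 5.6, 4.83 and 7.51 CPM, was higher by 1.79 ± 0.32 (adjusted p = 0.000975). The 1 member higher at 8 h was AT3G28580, an ATPase-type protein, with 2.72, 2.87 and 6 CPM in slr-1 against 16.8, 15.3 and 7.3 CPM (1.79 ± 0.39, adjusted p = 0.00465, and 0.0525 with the 8 h libraries fitted alone). Its controls already differed, with 1.55, 1.36 and 4.08 CPM in slr-1 against 8.42, 13.2 and 10.4 CPM. With the 16 h libraries fitted alone, RWP1, AT3G22620, AT4G17280 and AT5G26220 lost their 16 h calls (adjusted p from 0.124 to 0.191), and with the block added all 4 kept them (adjusted p from 0.000491 to 0.0222).

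The promoters of 3 members that changed sign and had the smallest p at 24 h (HCD1, CYP86B1 and ABCG23) are printed with that of IAA14, so that members with different late patterns can be read side by side. Each is the 250 bases before the annotated gene start, 5′ to 3′ on the gene's strand, from RefSeq's TAIR10.1. Capitals mark the motifs searched on both strands, which were the auxin response elements TGTCTC and TGTCGG, the G-box CACGTG, the W-box letters TTGACC and TTGACT, the GCC-box GCCGCC, and the AC elements ACCTAC and ACCAAC bound by MYB factors. HCD1 lies on the minus strand (chr4:8307935-8308184), as do IAA14 (chr4:8350264-8350513), CYP86B1 (chr5:7805969-7806218) and ABCG23 (chr5:6547178-6547427).
HCD1: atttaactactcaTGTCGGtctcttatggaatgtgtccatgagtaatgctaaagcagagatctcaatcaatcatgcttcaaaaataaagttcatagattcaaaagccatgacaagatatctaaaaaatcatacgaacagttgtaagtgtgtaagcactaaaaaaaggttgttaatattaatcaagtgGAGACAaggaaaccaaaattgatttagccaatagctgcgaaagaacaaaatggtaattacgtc
CYP86B1: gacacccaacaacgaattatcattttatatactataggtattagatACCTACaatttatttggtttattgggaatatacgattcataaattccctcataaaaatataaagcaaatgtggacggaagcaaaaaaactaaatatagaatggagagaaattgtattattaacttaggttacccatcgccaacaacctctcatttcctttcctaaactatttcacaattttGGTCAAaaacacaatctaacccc
ABCG23: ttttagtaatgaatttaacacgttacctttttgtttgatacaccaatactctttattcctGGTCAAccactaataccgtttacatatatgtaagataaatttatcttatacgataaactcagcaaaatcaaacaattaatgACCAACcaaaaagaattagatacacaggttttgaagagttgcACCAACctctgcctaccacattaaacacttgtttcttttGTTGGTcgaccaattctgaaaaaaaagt
IAA14: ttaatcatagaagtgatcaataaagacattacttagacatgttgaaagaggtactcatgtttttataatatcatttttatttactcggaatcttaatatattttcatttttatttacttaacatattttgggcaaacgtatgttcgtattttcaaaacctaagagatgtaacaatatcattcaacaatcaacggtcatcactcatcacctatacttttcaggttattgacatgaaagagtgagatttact
HCD1 has TGTCGG 237 to 232 bases before the start and TGTCTC on the opposite strand 63 to 58 bases before it. CYP86B1 has ACCTAC 204 to 199 bases before the start and TTGACC on the opposite strand 23 to 18 bases before it. ABCG23 has TTGACC on the opposite strand and ACCAAC at 3 places, 1 of them on the opposite strand. None of these letters is in the IAA14 window. Over the members, 10 of 56 windows (17.9%) held TGTCTC or TGTCGG, against 14.6% of the 26711 protein-coding loci. The W-box letters were in 20 (35.7%, against 28.5%), the AC elements in 16 (28.6%, against 15.3%), the G-box in 6 (10.7%, against 6.58%) and the GCC-box in 0 (against 1.85%). No matches overlapped each other, and these shares are descriptions. HCD1 and IAA14 are 39887 bases apart on chromosome 4, with 14 loci between them. CHIL and LAC12 are 29360 bases apart on chromosome 5, with 12 loci between them. How often loci drawn from the whole genome lie this near was not counted.

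None of the 19 matched genes of a phenylpropanoid and lignin list was a member. Its symbol FAH1 was matched to AT2G34770, a fatty acid hydroxylase and not a lignin gene, which was not called at any tested time. In edgeR 0 of the list's 18 tested genes were called at 4 h (1 had an unadjusted p under 0.05, and DESeq2 called 0), 1 was lower at 8 h and at 16 h, and 3 were higher and 3 lower at 24 h. Of all genes tested, 9.07%, 7.96%, 4.7% and 6.66% were lower at 4, 8, 16 and 24 h, and 7.87%, 6.79%, 4.08% and 6.18% higher. The members UGT78D1, CHIL, LAC12 and MYB4 have roles in flavonoids or other phenolics, and were picked for those roles with their values known. UGT78D1, a flavonol glycosyltransferase, was at 78.3, 77 and 53.4 CPM in slr-1 at 4 h against 47.1, 28 and 23.3 CPM (-1.08 ± 0.23, edgeR adjusted p = 0.00327), and at 39.9, 30.6 and 26.1 CPM at 24 h against 40.7, 35.2 and 32.3 CPM (0.17 ± 0.23, adjusted p = 0.687). CHIL, a chalcone isomerase-like protein of flavonoid synthesis, was at 335, 307 and 298 CPM at 4 h against 247, 229 and 208 CPM (-0.45 ± 0.20, adjusted p = 0.116). Its libraries did not overlap there, but the difference was not called. LAC12 was at 48.7, 50.0 and 23.7 CPM at 4 h against 6.45, 3.13 and 6.38 CPM (-2.93 ± 0.45, adjusted p = 0.000185), and under 3 CPM in every library at 16 and 24 h. MYB4 had a difference of -0.61 ± 0.20 at 4 h (adjusted p = 0.0429), a call lost under 4 other fits and without any 1 of 11 libraries (for example 0.218 without slr-1 4 h replicate 1).

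In 9 members no genotype difference was called at any time from 4 to 24 h, namely ACC1, PMI1, AT1G52700, AT1G65920, NIA1, AT3G17130, APR1, CHIL and AT5G16980. ACC1 was at 580, 534 and 535 CPM at 4 h against 675, 509 and 497 CPM (0.03 ± 0.15, edgeR adjusted p = 0.9). APR1 was at 188, 201 and 165 CPM against 229, 145 and 146 CPM (-0.08 ± 0.21, adjusted p = 0.807). The libraries overlapped for both. NIA1 varied widely, from 10.5 to 6.54 and 68.4 CPM among the 3 CASP1::shy2-2/slr-1 libraries at 8 h, of which the highest was the one without the suffix n, and rose in both genotypes from 4 to 24 h (4.12 ± 0.81 in slr-1, adjusted p = 0.000439, and 2.83 ± 0.77 in CASP1::shy2-2/slr-1, adjusted p = 0.00446). AT1G52700, a hydrolase, also rose in both, by 3.05 ± 0.71 (adjusted p = 0.00209) and 4.19 ± 0.77 (adjusted p = 0.000177).

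Over time, 39 members fell from 4 to 24 h in slr-1 (69.6%, background 21%) and 3 rose (background 20.2%), with a median of -1.73. In CASP1::shy2-2/slr-1 29 fell (51.8%, background 27.6%) and 13 rose (background 27.2%), with a median of -1. Of these, 28 fell in both genotypes. The interaction was positive in 39 members (69.6%, background 10.5%) and negative in 1 (1.79%, background 8.33%), with a median of 1.86 against -0.00 over all genes tested. In 31 members a fall in slr-1 went with a positive interaction, that is, with a smaller fall or a rise in CASP1::shy2-2/slr-1.

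**Figure D4:**
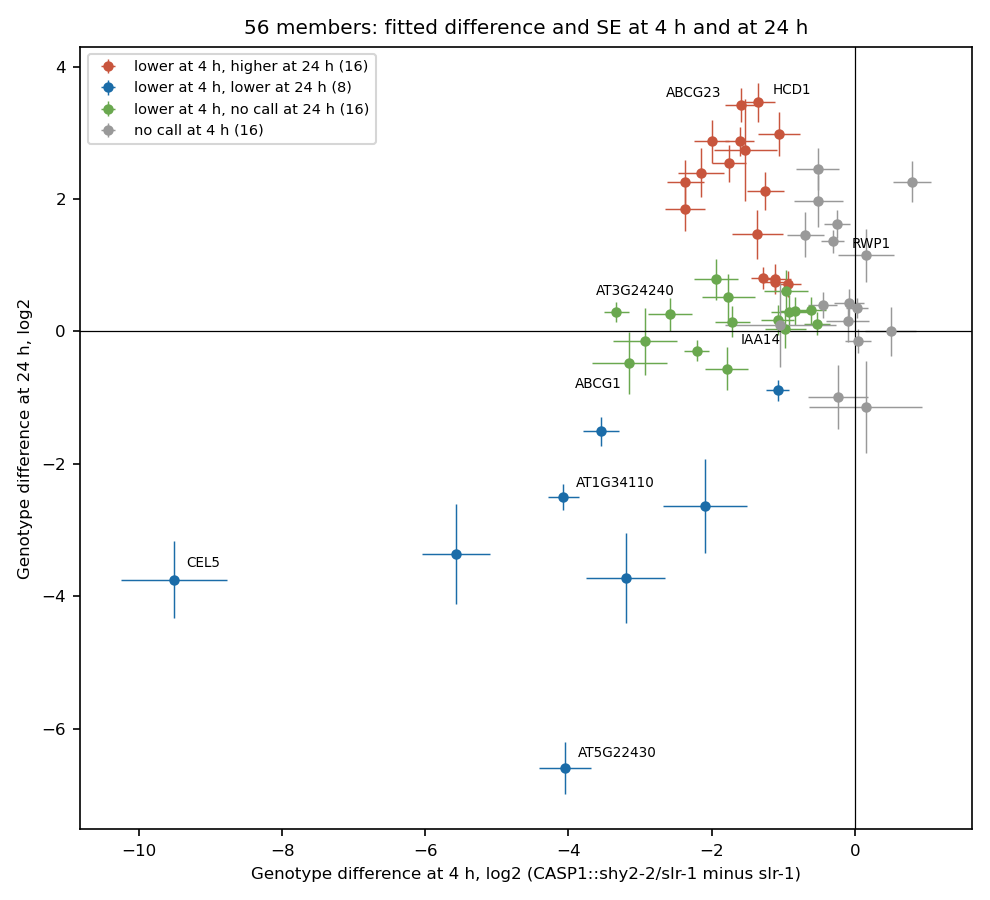
Fitted log2 difference, CASP1::shy2-2/slr-1 minus slr-1, at 24 h (y axis) against 4 h (x axis) for the 56 members, with bars of 1 SE, coloured by how each was called. The 16 members lower at 4 h and higher at 24 h lie at the upper left, the 8 lower at both times at the lower left, and the 16 lower at 4 h alone near 0 on the y axis.

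The 91 loci with a rise of at least 1.5 at 2 h in both genotypes serve as a comparison, chosen from the same 2 h libraries. At 4 h 19.8% of them were lower in CASP1::shy2-2/slr-1 (71.4% of the members), and at 24 h 22% were lower and 3.3% higher (14.3% and 39.3% of the members). Their median interaction was 0.01, and that of the members 1.86. No test was made of the difference between the sets. For the 19 members kept with each of the 12 libraries left out, 17 were lower at 4 h, 16 at 8 h, and 8 were higher and 4 lower at 24 h. For the 120 loci chosen without CASP1::shy2-2/slr-1 2 h replicate 2, 70 were lower (58.3%) and 1 higher at 4 h, and 32 were higher and 18 lower at 24 h.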

How the data were processed

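Stranded mRNA libraries of dissected roots were read as single reads, per the labels' protocols. The tools, per the submitters' processing notes, were STAR 2.4.0a, cutadapt 1.3 and HTSeq 0.6.1, and the build was TAIR10. The deposited files hold the authors' count of reads per locus and library, 1 file for each of 36 libraries, with settings, strand use included, not given in the sources used here, so overlapping, antisense or near-identical loci are uncertain. Reads in the 5 summary lines per file, 5.28 to 11.2%, were dropped. Depth is in the report. Replicates differed by more than counting noise.

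The members, lists and comparisons were chosen with earlier results of these data known. CPM used total counts of loci and is not per length, so levels of different genes were not compared. Symbols, products and sequences came from RefSeq's TAIR10.1 (31912 of 32678 loci matched). The promoter window stops before the annotated start. In 3 members it overlaps another locus.

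Counts of the 24 libraries at 4 to 24 h were fitted in R 4.3.3 with edgeR 4.0.16 (filterByExpr, TMM factors 0.952 to 1.045, robust quasi-likelihood F-test, 8 group means, 16 residual degrees of freedom, biological coefficient of variation 0.143, which is the root of the common dispersion). The filter left out 11970 loci. The fit was tested on simulated counts.

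Replicate numbers were checked as pairs. All numbered pairs deviated together (correlation over 0.1) in 1 of 6 comparisons (4 of the genotypes, 2 over time), that of the genotypes at 16 h, where a block was therefore also fitted. In 0 of the 6 did each library correlate best with its own number. Replicate 3 of both genotypes at 16 h also shared the suffix n. Alternatives were DESeq2 1.42.0, RLE and total count scaling, a filter at a mean of 5 CPM or none, all 36 libraries, only the groups compared, a block of replicate number, the code suffix n as covariate, thresholds of 0.01 and of log2 1, each library left out, and other settings of the rule. The 16 h fit with a block and the tests of other member sets were chosen after seeing the data.

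Genes are named by a rule: the 12 largest rises at 2 h, the 8 highest levels, the 4 smallest p per direction and comparison, members of the lists, the loci at the thresholds, up to 4 per time pattern, and IAA14, IAA3 and CASP1 with the 5 members most like IAA14. Others are named where they make up a counted group, after their values were seen.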

Additional observations from a re-analysis of the deposited data

Results flagged for a closer look

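A difference between the genotypes in the change from 4 to 24 h, tested as an interaction in edgeR's quasi-likelihood fit, was followed for the members with the smallest p in each direction. It was 5.01 for ABCG23, 4.81 for HCD1, 4.49 for CYP86B1 and 3.62 for AT3G24240, each on the log2 scale and positive, and -2.54 for AT5G22430. ABCG23, HCD1 and CYP86B1 fell in both genotypes and by more in slr-1. AT3G24240 rose in CASP1::shy2-2/slr-1, where its 3 libraries at 24 h (74.7, 70.9 and 68.6 CPM) stood above those of slr-1 (62.1, 58.6 and 54.6 CPM). AT5G22430 rose in slr-1 and held 3 to 16 reads per library in CASP1::shy2-2/slr-1, so the size of its interaction is less certain than its direction. The summed endodermis markers were 176 to 200 CPM at 4 h and 32.6 to 34.2 CPM at 24 h in slr-1, and 146 to 177 and 60.6 to 69.8 CPM in CASP1::shy2-2/slr-1. Gene by gene, the 9 tested markers had a median interaction of -0.51. It was called positive in 1 of them (background 10.5%) and negative in 0 (background 8.33%). The part of the markers in these differences was not tested.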

How the results depend on the processing

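Of 249 calls of a member in a comparison, 173 kept their direction and their side of the threshold under every alternative run (11 of the fit and 24 left-out libraries), 76 were lost under at least 1, and 0 turned. The calls lost without at least 1 library numbered 46. Apart from thresholds and left-out libraries, 40 were lost under another fit, 25 of them when only the groups compared were fitted and 19 with all 36 libraries. At 4 h the members called higher numbered 1 in place of 0 with RLE, with DESeq2, with only the groups compared, with the replicate block and with suffix n as a term. At 8 h the member called higher was lost with only the groups compared (0), and at 16 h the 13 called higher became 2. At 24 h the 8 called lower became 5 with a mean CPM of at least 5. The replicate block gave 13 members higher and 14 lower at 16 h, and the 16 h libraries alone with the block 18 and 12, against 13 and 11. Leaving out 1 library at a time gave 0 to 1 members higher and 30 to 41 lower at 4 h, 1 to 3 and 21 to 31 at 8 h, 10 to 17 and 9 to 12 at 16 h, and 18 to 23 and 7 to 8 at 24 h. For the rule, leaving out 1 library gave 26 to 120 members, a rise of at least 2 gave 19, and no rise allowed in CASP1::shy2-2/slr-1 gave 24. With 3 libraries a group, a difference that was not called was not shown to be absent, and members under 1 CPM in a group rest on few reads.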
